A study of Mus musculus with 9 samples.

Results

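Translation of an mRNA starts when the cap-binding complex recruits the ribosome, and the eIF4G proteins are the scaffolds of that complex: Eif4g1 and Eif4g3 encode scaffolds that hold together the cap-binding protein eIF4E, the RNA helicase eIF4A and the poly(A)-binding protein, and Eif4g2 encodes a shorter relative that lacks the eIF4E-binding part. The CPEB proteins, encoded by Cpeb1, Cpeb2, Cpeb3 and Cpeb4, bind U-rich elements in the untranslated regions of mRNAs and set the length of the poly(A) tail and the rate of translation. In neurons both families are known for control of local protein synthesis, and several of these genes carry microexons, very short exons that neural cells include and that the splicing regulator SRRM4 promotes.

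The 7 genes Eif4g1, Eif4g2, Eif4g3, Cpeb1, Cpeb2, Cpeb3 and Cpeb4 were taken by symbol from 21553 genes, and their 46 cassette exons by gene name from 54141 listed cassette exons. They were followed in 9 poly(A)-selected RNA-seq libraries of N2A cells, a mouse neuroblastoma line, all harvested 48 h after transfection with a pool of siRNAs. In one experiment cells received siRNAs against Srrm4 (siSrrm4), against Zfp871 (siZfp871, a zinc finger protein) or a non-targeting pool (siNT2), with 2 libraries per group, called a and b here. In the other, cells received siRNAs against both Mbnl1 and Mbnl2 (siMbnl, a pair of splicing regulators), against Nacc1 (siNacc1, a BTB-domain transcriptional regulator) or a non-targeting pool (siNT1), with 1 library per group, so that its differences have no replicate check and no p-value. The knockdowns were transient, in 1 cell line, and nothing ties the 2 libraries of a group to separate cultures, so that the p-values measure only the spread between these libraries, which may be technical.

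Libraries held 44186088 to 61159670 gene counts in the experiment with replicates and 50086176 to 63715449 in the other. Levels are given as counts per 1000000 (CPM), scaled by edgeR's trimmed mean of M-values within each experiment. Srrm4 averaged 27.2 ± 1.58 CPM in siSrrm4 cells and 81.8 ± 21.1 CPM in siNT2 cells (SD, n = 2 each), and Zfp871 averaged 6.13 ± 1.48 CPM in siZfp871 cells and 21.9 ± 6.09 CPM in siNT2 cells (SD, n = 2 each). Mbnl1 had 45.6 CPM and Mbnl2 18.3 CPM in the siMbnl library, against 124 CPM and 65.6 CPM in the siNT1 library, and Nacc1 had 51.5 CPM in the siNacc1 library, against 208 CPM in siNT1. The neuroblastoma and neuronal markers were present, 8 of 9 of them, and summed to 2807 to 2938 CPM in the siSrrm4 and siZfp871 libraries and 3248 to 3537 CPM in siNT2. Markers of glia, epithelium and immune cells summed to at most 7.86 CPM in any library, with Ptprc, Cd3e, Aif1 and Epcam at 0 counts in all libraries of the replicated experiment.

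The 7 genes hold 5 listed microexons, defined here as exons of 3 to 27 nt. Their sequences are shown because the splicing differences below fall on them and because they form a pair and a trio of related exons. Each lies inside the coding sequence and has a length that is a multiple of 3. Capitals mark the microexon and lower case the 15 bases of exon on either side in the spliced mRNA, 5′ to 3′, read from GENCODE vM21 transcripts (GRCm38) matched by gene, exon length and the lengths of both flanking introns. For Cpeb4 1 transcript matched, with an upstream intron of 28861 nt that spans the 51-nt exon described below. Its upstream bases are thus those of mRNA without that exon.
Eif4g1 21-nt microexon: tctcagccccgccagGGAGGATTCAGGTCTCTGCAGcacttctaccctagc
Eif4g3 21-nt microexon: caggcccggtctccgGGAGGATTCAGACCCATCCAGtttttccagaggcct
Cpeb2 24-nt microexon: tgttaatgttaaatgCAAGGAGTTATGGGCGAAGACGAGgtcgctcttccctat
Cpeb3 24-nt microexon: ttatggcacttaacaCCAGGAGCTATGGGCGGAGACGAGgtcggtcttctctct
Cpeb4 24-nt microexon: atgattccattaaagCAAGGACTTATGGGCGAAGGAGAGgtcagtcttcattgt
The Eif4g1 and Eif4g3 microexons share 16 of 21 bases, 76.2%, and their first 11 bases are the same. Among the Cpeb trio, Cpeb2 matches Cpeb3 and also Cpeb4 at 21 of 24 bases, 87.5%, and Cpeb3 matches Cpeb4 at 18 bases, 75.0%. Of the 24 positions 18 are the same in all 3, including a run of 8 bases, TATGGGCG. Cpeb1 and Eif4g2 have no listed exon in this length class. In the mm9 coordinates of the deposited files the microexons lie at chr16:20674859-20674879 (Eif4g1, plus strand), chr4:137651824-137651844 (Eif4g3, plus), chr5:43660108-43660131 (Cpeb2, plus), chr19:37180281-37180304 (Cpeb3, minus) and chr11:31818801-31818824 (Cpeb4, plus).

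Knockdown of Srrm4 addressed which exons depend on this neural splicing regulator. Inclusion was measured as PSI, the percent of spliced reads that include the exon. An exon was tested where every library had at least 10 reads and at least 1 library had a PSI of 2 to 98, and called where edgeR's quasi-likelihood test gave an adjusted p under 0.05 over all 20266 tested exons with a PSI difference of at least 10 points. In siSrrm4 cells 1 of the 22 tested member exons was called, the Eif4g1 microexon, which was lower, and over all exons 25 were called, all lower, 0.123% of those tested. Among the 510 tested microexons of all genes 18 were called lower, 3.53%, and the Eif4g1 microexon was the 1 called of the 4 tested in the members. Without any 1 of the 4 libraries compared, 0 exons of all genes were called by the quasi-likelihood test (810 to 1047 had an unadjusted p under 0.05), so that these background shares were lost as well. All 4 tested member microexons were lower in both siSrrm4 libraries than in both siNT2 libraries, which also held for 258 of the 510 microexons, 50.6%.

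The Eif4g1 microexon, in the scaffold that carries most cap-dependent initiation, had PSIs of 12.8 and 16.4 in the siSrrm4 libraries, against 48.1 and 53.6 in the siNT2 libraries. Both siSrrm4 libraries lay below both controls. By column letter, which is not known to pair the libraries, the differences were 35.3 points (a) and 37.2 points (b). The mean was 14.6 ± 2.57 in siSrrm4 cells and 50.8 ± 3.88 in siNT2 cells (SD, n = 2 each), a difference of -36.2 points with an adjusted p of 0.0183 in edgeR's quasi-likelihood test. Between 1127 and 1726 reads per library stood behind these values. The call was lost without any single one of the 4 libraries (adjusted p from 0.117 to 0.328, with differences from -39.0 to -33.5) and with only these 4 libraries in the fit (adjusted p 0.0942). It also depended on the prior of the quasi-likelihood test: a prior without a trend on read depth was run first and called no exon of any gene (adjusted p 0.171 here), and edgeR's default prior with the trend was taken after that result had been seen.

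The related Eif4g3 microexon was rarely included in any of the 9 libraries. Its PSI was 0.300 and 0.340 in the siSrrm4 libraries, against 2.72 and 2.57 in the siNT2 libraries. The groups did not overlap, and the difference of -2.32 points was below the 10 points required for a call (adjusted p 0.385, quasi-likelihood test). Eif4g1 and Eif4g3 thus carried similar sequences at inclusion levels of 50.8 ± 3.88 and 2.64 ± 0.106 in siNT2 cells (SD, n = 2 each).

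Among the Cpeb genes the 3 microexons had different levels and the same sign of difference in siSrrm4 cells. The Cpeb4 microexon had PSIs of 9.65 and 16.2 in the siSrrm4 libraries, against 33.3 and 42.6 in the siNT2 libraries. The siSrrm4 libraries lay below both controls, a mean difference of -25.0 points that did not pass the quasi-likelihood test (adjusted p 0.555). It passed the likelihood ratio test, which takes no account of how well the spread itself is known (adjusted p 7.77e-04; 282 of 20266 exons, 1.39%, were called by that test).

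The Cpeb2 microexon, mostly included in this line, had PSIs of 79.0 and 85.3 in the siSrrm4 libraries, against 94.9 and 96.9 in the siNT2 libraries. These groups did not overlap either, with a difference of -13.7 points (adjusted p 0.836, quasi-likelihood test). Only 55 to 148 reads per library covered it. The Cpeb3 microexon belongs to the gene with the lowest level and could not be tested, because siNT2 library a had 5 reads on it. It had PSIs of 53.0 and 37.0 in the siSrrm4 libraries, against 79.0 and 75.8 in the siNT2 libraries, and the 95% Clopper-Pearson intervals of the 4 libraries, which cover counting error only, all overlapped.

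**Figure D1:**
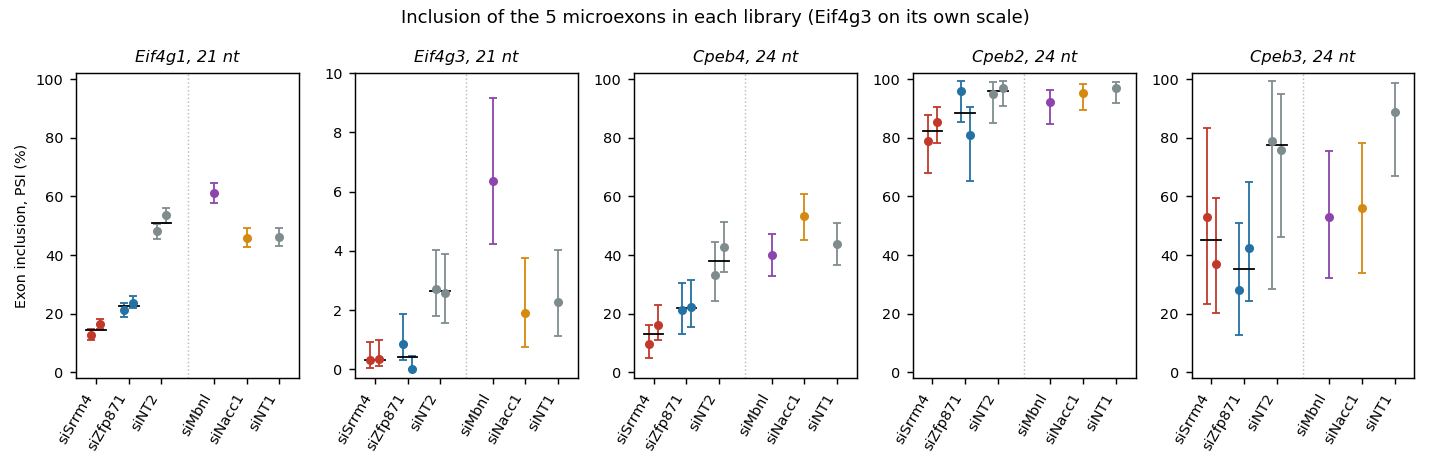
Inclusion (PSI, percent) of the 5 microexons in each of the 9 libraries; points are libraries with 95% Clopper-Pearson intervals from their read counts, black bars are means of 2 libraries, and the dotted line parts the experiments. The siSrrm4 points lie below the siNT2 points in all 5 panels, with Eif4g1 at 12.8 and 16.4 against 48.1 and 53.6.

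Knockdown of Zfp871 gave differences of the same sign in the member microexons, smaller in Eif4g1, Cpeb4 and Cpeb2. Both comparisons use the same siNT2 libraries, so the values are given side by side and not as independent evidence. No exon of any gene was called in siZfp871 cells by the quasi-likelihood test, 0.0% of 20266, while 946 had an unadjusted p under 0.05 and the likelihood ratio test called 185, 0.913%. The Eif4g1 microexon had PSIs of 21.2 and 23.8 in the siZfp871 libraries, against 48.1 and 53.6 in siNT2. Both siZfp871 libraries lay far below both controls, a difference of -28.3 points, which missed the quasi-likelihood threshold (adjusted p 0.314) and passed the likelihood ratio test (adjusted p 4.36e-10), the one member exon to do so with at least 10 points.

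The Cpeb4 microexon had PSIs of 21.3 and 22.2 in siZfp871, against 33.3 and 42.6 in siNT2, so that the groups did not overlap (difference -16.2 points, adjusted p 0.888, quasi-likelihood test). For Cpeb2 the PSIs were 96.0 and 80.9 in siZfp871, against 94.9 and 96.9 in siNT2. The siZfp871 libraries fell on either side of the controls and 1 library made the mean difference of -7.46 points: without siZfp871 library b it was 0.0985. The Eif4g3 microexon had PSIs of 0.849 and 0.0 in siZfp871, against 2.72 and 2.57 in siNT2, both below the controls (adjusted p 0.888, quasi-likelihood test). The untested Cpeb3 microexon had 27.9 and 42.5 in siZfp871, against 79.0 and 75.8 in siNT2. Both libraries lying below both controls held for 3 of the 4 tested member microexons and for 52.5% of the 510 microexons of all genes.

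Srrm4 itself had 44.9 and 53.7 CPM in the siZfp871 libraries, against 66.8 and 96.7 CPM in siNT2, a log2 fold change of -0.73 ± 0.19 (SE) that did not pass edgeR's quasi-likelihood test over all genes (adjusted p 0.0990). Its part in the microexon differences of siZfp871 cells was not tested.

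Set against each other, siZfp871 and siSrrm4 cells showed no called exon (0.0% of 20266; 1080 had an unadjusted p under 0.05 and the likelihood ratio test called 169, 0.834%, with no member). The Eif4g1 microexon was higher in both siZfp871 libraries than in both siSrrm4 libraries. By column letter, which is not known to pair the libraries, it was higher by 8.50 points (a) and 7.43 points (b). The mean difference of 7.97 points had an adjusted p of 0.853 in the quasi-likelihood test. For Cpeb4 the mean was 21.8 ± 0.651 in siZfp871 and 12.9 ± 4.66 in siSrrm4 (SD, n = 2 each), and the groups did not overlap (adjusted p 0.853, quasi-likelihood test). The Cpeb2 and Eif4g3 microexons overlapped between these groups. Both siZfp871 libraries thus lay above both siSrrm4 libraries for 2 of the 4 tested member microexons. Over all genes this held for 163 of 510 microexons, 32.0%.

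The 18 tested member exons longer than 27 nt differed less. In siSrrm4 cells their differences from siNT2 ran from -4.37 to 8.23 points with a median of 0.455, against a median of 0.00412 over all 19756 longer exons, and none was called. The same exons ran from -4.45 to 8.68 points in siZfp871 cells, with a median of 0.287 against -0.235 over all longer exons.

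The longer exons with the highest differences were in Cpeb4 and Cpeb2. The 51-nt exon of Cpeb4 (chr11:31808825-31808875), upstream of the microexon, had PSIs of 42.9 and 40.2 in the siSrrm4 libraries, against 34.2 and 32.4 in siNT2. It was higher by 8.23 points in the cells where the microexon was lower (adjusted p 0.871, quasi-likelihood test). In the siZfp871 libraries it had 35.5 and 31.3, which overlapped the controls. The 90-nt exon of Cpeb2 (chr5:43629566-43629655) had 33.2 and 33.5 in siSrrm4 and 39.8 and 34.6 in siZfp871, against 32.8 and 24.2 in siNT2. Of the siNT2 libraries, a lay just below both siSrrm4 libraries and b lay well below. The 95-nt exon of Cpeb1 averaged 96.6 ± 1.02 in siZfp871 and 99.7 ± 0.382 in siNT2 (SD, n = 2 each), a difference of -3.10 points with the groups apart (adjusted p 0.888, quasi-likelihood test).

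In the Eif4g genes the 94-nt exon of Eif4g1 (chr16:20673941-20674034) had PSIs of 92.2 and 90.2 in siSrrm4, against 95.2 and 95.9 in siNT2. The groups did not overlap, and the difference of -4.37 points was not called (adjusted p 0.441, quasi-likelihood test). The 114-nt exon of Eif4g2 (chr7:118219794-118219907), read at 12921 to 22042 reads per library, had 82.2 and 84.5 in siSrrm4 and 78.8 and 78.9 in siZfp871, against 78.3 and 81.9 in siNT2. The siSrrm4 values were the highest of the 3 groups, by 3.32 points over siNT2 (adjusted p 0.860, quasi-likelihood test). The 7 tested Eif4g3 exons other than the microexon included a 129-nt exon at 66.8 and 68.9 in siSrrm4, 68.4 and 69.9 in siZfp871 and 68.0 and 68.2 in siNT2, and a 33-nt exon at 22.5 and 21.2 in siSrrm4, 19.0 and 17.7 in siZfp871 and 20.3 and 25.3 in siNT2. In both, siSrrm4 overlapped siNT2, and siZfp871 lay above siNT2 for the 129-nt exon and below it for the 33-nt exon (adjusted p 1.00 and 0.888, quasi-likelihood test).

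**Figure D2:**
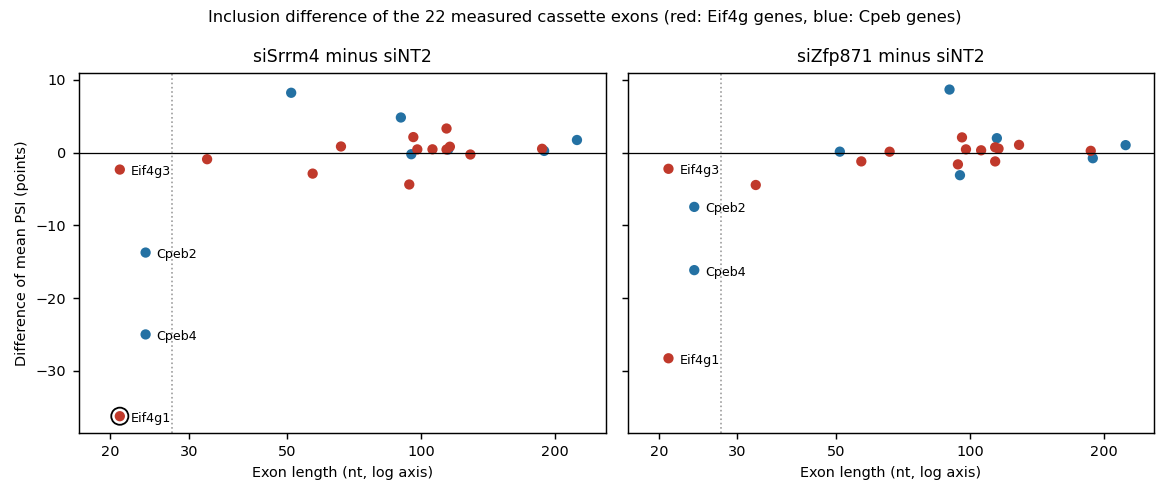
Difference of mean PSI from siNT2 (points) for the 22 tested member exons against exon length (nt, log axis), in siSrrm4 (left) and siZfp871 (right); red points are Eif4g genes, blue points Cpeb genes, the dotted line marks 27 nt and the ring marks the called exon. The microexons of Eif4g1, Cpeb4 and Cpeb2 lie below the 18 longer exons, which stay between -4.45 and 8.68 points.

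Of the other splicing events in these genes 44 could be tested, namely 18 retained introns, 16 alternative acceptor sites and 10 alternative donor sites, with limma on the logit of the PSI. None was called in any of the 3 contrasts, against 0 of 49236 events of all genes in siSrrm4 and in siZfp871 cells (0.0%) and 2 in siZfp871 against siSrrm4 (0.00406%). At an unadjusted p under 0.05 there were 0, 4 and 6 member events (0.0%, 9.09% and 13.6%), against 6.16%, 6.74% and 6.35% of the events of all genes. Both sites of an alternative pair are listed as events, and with each pair counted once there were 0, 3 and 4 of 33. One of these in siZfp871 cells, chosen after its values were seen, was an alternative acceptor of Eif4g1 (chr16:20675833-20675902), used at 10.98 and 12.5% in siZfp871, against 5.21 and 6.58% in siNT2. Both siZfp871 libraries exceeded both controls, by a mean of 5.84 points (adjusted p 0.702, limma).

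In the experiment without replicates an exon was kept where all 3 libraries had at least 20 reads and named where it differed by at least 20 points with 95% Clopper-Pearson intervals apart. None of the 44 member exons kept passed in siMbnl or in siNacc1, against 193 of 36175 exons (0.534%) and 180 (0.498%) over all genes. The Eif4g1 microexon had a PSI of 61.2 (57.7 to 64.5) in siMbnl, against 46.3 (43.2 to 49.3) in siNT1. This was 14.9 points higher in siMbnl with the intervals apart, short of the 20 points, and the only member exon that passed when 10 points were asked (436 exons, 1.21%, passed over all genes, and in siNacc1 462, 1.28%, with no member). In siNacc1 it had 46.0 (42.8 to 49.2), within the interval of siNT1.

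The Eif4g3 microexon had 6.37 (4.25 to 9.15) in siMbnl, against 2.29 (1.14 to 4.01) in siNT1. The siMbnl value was above all other libraries with the intervals apart, and the difference of 4.08 points was short of the 20 points. Intervals apart were not particular to the microexons. In siMbnl they held for the 57-nt Eif4g1 exon (80.9 against 87.4) and the 116-nt Eif4g3 exon (97.8 against 99.7), both lower. In siNacc1 they held for the 94-nt Eif4g1 and 33-nt Eif4g3 exons, both lower, and the 66-nt and 114-nt Eif4g2 exons, both higher. At the depth of the 66-nt Eif4g2 exon a difference of 0.610 points was enough. The share of all exons with intervals apart at any size of difference is not given here, so these cases have no background. The Eif4g3 microexon had 1.89 in siNacc1. Both Eif4g microexons were at their highest of the 9 libraries in siMbnl, with 1 library and no test. The 16 longer member exons that varied ran from -11.3 to 0.700 points in siMbnl against siNT1.

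The Cpeb microexons did not share that direction. Cpeb4 had 40.2 in siMbnl (33.0 to 47.3) and 53.2 in siNacc1 (45.1 to 61.0), against 43.9 in siNT1 (36.6 to 50.9). Cpeb2 had 92.2 in siMbnl and 95.3 in siNacc1, against 97.0 in siNT1. Cpeb3, with 19 to 22 reads per library, had 53.0 (32.2 to 75.6) in siMbnl and 55.9 (34.0 to 78.2) in siNacc1, against 88.9 (66.9 to 98.7) in siNT1. All of these intervals overlapped those of siNT1, the Cpeb3 ones only at their ends, and with 1 library per group the differences were not tested.

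The authors' deposited table of differential splicing marks 3 member exons in siSrrm4 cells, the microexons of Cpeb4, Eif4g1 and Cpeb2, and 2 in siZfp871 cells, those of Cpeb4 and Eif4g1. For siMbnl the authors' deposited table marks 1, the Eif4g1 microexon, and for siNacc1 none. The labels and file headers do not state how that mark was set.

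The exons of other genes whose PSIs over all 9 libraries were closest to a member microexon were found among 22172 exons by the root mean square difference, as a description with no test. For Eif4g1 these were a 24-nt exon of Ckap5 (4.40 points), a 36-nt exon of Epb4.1l3 (6.35 points) and an 18-nt exon of Arvcf (6.47 points). For Cpeb4 they were a 30-nt exon of Ppfia1 (5.07 points), a 33-nt exon of Camsap1l1 (5.88 points) and a 60-nt exon of Cstf2 (6.29 points). Chosen for likeness, these 6 exons were all lower in both siSrrm4 libraries than in both siNT2 libraries, as the Ckap5 exon shows with 15.2 and 13.2 in siSrrm4, against 46.4 and 52.8 in siNT2. The exons nearest to the rarely included Eif4g3 microexon were in Nav1 (9 nt, 0.863 points), Alg5 (116 nt, 0.89965 points) and Pip5k1c (78 nt, 0.911 points). Also chosen for likeness over the same 9 libraries, all 3 were, like that microexon, at their highest in siMbnl. Among those nearest to the mostly included Cpeb2 microexon were exons of Zfp384 (238 nt, 3.67 points) and Abtb1 (201 nt, 4.14 points).

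At the level of mRNA, the 7 genes spanned a wide range. Levels were compared between genes only in cRPKM, the authors' read density corrected for length and depth, in the 3 libraries siMbnl, siNacc1 and siNT1. Eif4g2 was highest, with 406 cRPKM in siMbnl and 401 cRPKM in siNacc1, against 494 cRPKM in siNT1. Eif4g1 followed (189 to 198 cRPKM) and then Eif4g3 (62.2 to 78.7 cRPKM). Among the Cpeb genes, Cpeb1 (23.5 to 30.6 cRPKM) and Cpeb4 (20.6 to 27.04 cRPKM) overlapped each other and stood above Cpeb2 (14 to 17.7 cRPKM). Cpeb3 was lowest, at 1.34 to 1.73 cRPKM. All other neighbours in this order had ranges apart. Over all 9 libraries Cpeb3 had 218 to 507 counts and Eif4g2 87023 to 161515.

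In siSrrm4 cells 1 of the 7 genes was called, Cpeb1, which rose, against 582 of 12378 genes called over all (4.7%) and 175 called higher (1.41%). Cpeb1, the founding CPEB that directs cytoplasmic polyadenylation, had 75.7 and 78.9 CPM in the siSrrm4 libraries, against 55.9 and 58.7 CPM in siNT2. The groups did not overlap, with a log2 fold change of 0.43 ± 0.09 (SE) and an adjusted p of 0.0463 in edgeR's quasi-likelihood test. The call was lost without any 1 of these 4 libraries (adjusted p 0.111 to 0.248, with 0 to 180 genes called over all) and with only the 4 libraries in the fit (adjusted p 0.102).

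Eif4g2 had 1922 and 2077 CPM in siSrrm4, against 2548 and 2795 CPM in siNT2. Both siSrrm4 libraries lay below both controls, with a log2 fold change of -0.42 ± 0.09 (SE) and an adjusted p of 0.0564 in edgeR's quasi-likelihood test, just above the threshold of 0.05. The authors' deposited table gives it an FDR of 0.0303, and DESeq2's Wald test an adjusted p of 5.57e-04. The other 5 genes had log2 fold changes from -0.04 (Eif4g1) to 0.23 (Cpeb3) and overlapped the controls. The lower microexon inclusion in Eif4g1 thus came with Eif4g1 mRNA at 1154 ± 166 CPM in siSrrm4 and 1184 ± 123 CPM in siNT2 (SD, n = 2 each).

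In siZfp871 cells none of the 7 genes was called by edgeR's quasi-likelihood test (358 of 12378 genes over all, 2.89%), while 3 had an unadjusted p under 0.05 and DESeq2 called 1. That null depended on the fit: with a block on the column letter, Cpeb2, Cpeb3 and Cpeb4 were called, and 3854 genes over all. The letters are not known to mark a shared culture or day. Cpeb2 had 50.7 and 58.0 CPM in siZfp871, against 76.4 and 105 CPM in siNT2. Both siZfp871 libraries lay below both controls (log2 fold change -0.74 ± 0.19 (SE), adjusted p 0.0994 in edgeR's quasi-likelihood test and 5.43e-03 in DESeq2's, and an FDR of 0.0143 in the authors' deposited table). Cpeb3 had 6.81 and 7.73 CPM in siZfp871, against 4.71 and 5.11 CPM in siNT2, higher in both (log2 fold change 0.57, adjusted p 0.160, edgeR). Cpeb4 had 32.5 and 32.2 CPM in siZfp871, against 37.4 and 42.9 CPM in siNT2, lower in both (log2 fold change -0.31, adjusted p 0.202, edgeR). The groups were apart as well in Cpeb1 (log2 fold change 0.15, adjusted p 0.358, edgeR) and Eif4g3 (-0.05, adjusted p 0.769, edgeR). Eif4g1 and Eif4g2 overlapped the controls. The share of all genes with groups apart is not given here, for any contrast. Among the marker lists, the mesenchymal one, of 5 genes, summed to 30.05 and 102.2 CPM in siZfp871, against 4.53 and 14.8 CPM in siNT2. Acta2 made up nearly all of it (29.1 and 101.6 CPM in siZfp871), while Col3a1 had 0 counts in every library and Col1a1 and Col1a2 at most 9 counts in the replicated experiment, and its part in these results was not tested.

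Between the knockdowns, 2 of the 7 genes were called in siZfp871 against siSrrm4, where 1374 genes (11.1%) were called over all, 5.53% higher and 5.57% lower. Eif4g2 was higher, with 2766 and 2856 CPM in siZfp871, against 1922 and 2077 CPM in siSrrm4 (log2 fold change 0.49 ± 0.09 (SE), adjusted p 0.0277, edgeR's quasi-likelihood test). Cpeb2 was lower, with 50.7 and 58.0 CPM in siZfp871, against 88.1 and 113 CPM in siSrrm4 (log2 fold change -0.89 ± 0.19 (SE), adjusted p 0.0369, edgeR's quasi-likelihood test). In both genes the groups were wholly apart, but this was not particular to them. It also held for Cpeb1, Cpeb3, Cpeb4 and Eif4g3, which were not called. In Eif4g3 the log2 fold change was only -0.07 (adjusted p 0.627, edgeR's quasi-likelihood test). Eif4g1 overlapped. Without 1 library the adjusted p of Eif4g2 was 0.110 to 0.164 and that of Cpeb2 0.0482 to 0.173, and Cpeb2 kept its call only without siSrrm4 library a.

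Without replicates, no member reached a log2 fold change of 1 (with at least 50 counts) in siMbnl or siNacc1, against 118 of 11604 genes (1.02%) and 398 of 11580 (3.44%). The lowest member was Eif4g2, at 2042 CPM in siMbnl and 2073 CPM in siNacc1, against 2566 CPM in siNT1 (log2 fold changes -0.33 and -0.31). Eif4g2 was thus lower than its control in 3 of the 4 knockdowns, all but siZfp871, 2 of them set against the same siNT1 library. The highest in siMbnl was Cpeb1, with 91.9 CPM in siMbnl, against 72.8 CPM in siNT1 (log2 fold change 0.34). Cpeb3 had 9.92 CPM in siMbnl (95% Poisson interval 9.07 to 10.8) and 8.21 CPM in siNacc1 (7.50 to 8.96), against 7.93 CPM in siNT1 (7.25 to 8.65). Eif4g3 had 343 CPM in siNacc1, the lowest of the 3 libraries of that experiment, against 395 CPM in siNT1.

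**Figure D3:**
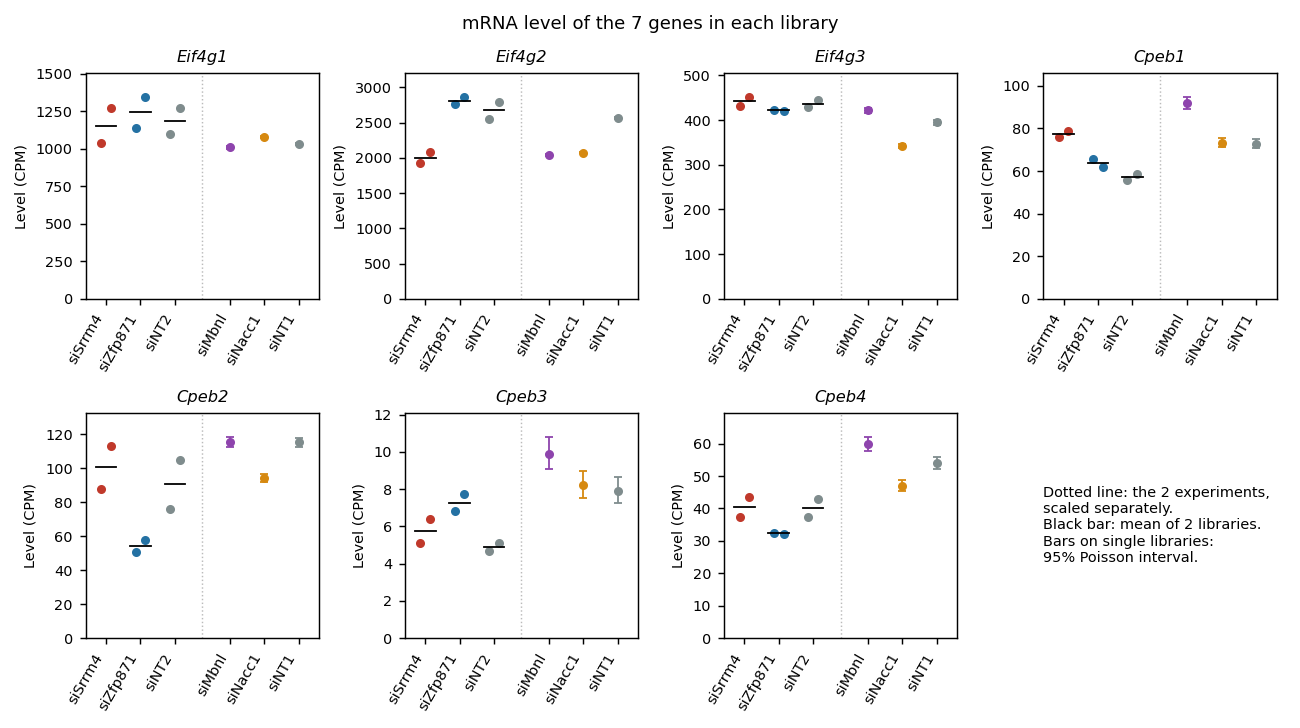
mRNA level (CPM, scaled within each experiment) of the 7 genes in each library; points are libraries, black bars means of 2 libraries, bars on single libraries 95% Poisson intervals, and the dotted line parts the experiments. Cpeb1 is highest of its experiment in siSrrm4 (75.7 and 78.9 CPM), Eif4g2 lowest there (1922 and 2077 CPM), and Cpeb2 lowest in siZfp871 (50.7 and 58.0 CPM).

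The genes whose levels followed a member most closely over the 6 libraries of the replicated experiment, by Pearson's r of log2 CPM, were Rrm2 and Zfp322a for Eif4g2, Itsn2 and Alg5 for Cpeb1, Hoxc6 and Man2a1 for Cpeb2, and Arpc5 and Gfm1 for Cpeb3, with r from 0.994 to 0.998. For Cpeb4 they were Txnrd1 and Gin1, for Eif4g1 mt-Atp6 and C130050O18Rik, and for Eif4g3 Rps6ka6 and Nfat5, with r from 0.990 to 0.994. Between 198 and 528 genes had r of at least 0.9 with each member, and all share the same 6 libraries, so these r are descriptions.

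Around the 7 genes, 106 others of the same machinery were followed in 4 lists, 104 of which could be tested. In siSrrm4 cells 1 rose and 1 fell, 1.92% of the 104 against 4.7% of all genes. In siZfp871 cells 1 rose and 1 fell, also 1.92%, against 2.89% of all genes. In siZfp871 against siSrrm4 7 were higher and 3 lower, 9.62% against 11.1% of all genes. The median log2 fold change of the 104 was 0.03 in siSrrm4, 0.07 in siZfp871 and 0.03 between them, against 0.00, -0.01 and -0.01 over all genes.

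The 28 genes of the cap-binding complex and its regulators had 27 tested. None was called in siSrrm4, and in siZfp871 Cyfip1, whose product binds eIF4E and represses translation, rose (131 and 137 CPM in siZfp871, against 90.4 and 97.4 CPM in siNT2; adjusted p 0.0428, edgeR). In siZfp871 against siSrrm4, 3 were higher and 1 lower. Eif4a2, a cap-complex helicase, had 101.2 and 90.5 CPM in siZfp871, against 65.3 and 58.4 CPM in siSrrm4. Rps6kb1, the ribosomal S6 kinase, had 56.7 and 55.2 CPM in siZfp871, against 37.1 and 38.2 CPM in siSrrm4. Pabpc1, the poly(A)-binding protein that eIF4G holds, had 1978 and 2038 CPM in siZfp871, against 1464 and 1417 CPM in siSrrm4. The one lower was Gigyf1, at 49.98 and 54.6 CPM in siZfp871, against 71.0 and 66.8 CPM in siSrrm4.

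Of the 31 other initiation factors, all tested, 1 was called: Eif2b2, a subunit of the exchange factor for eIF2, rose in siSrrm4 (128 and 143 CPM, against 96.2 and 95.8 CPM in siNT2; adjusted p 0.0490, edgeR). Of 24 genes of cytoplasmic polyadenylation and deadenylation none was called against siNT2, and Cpsf4, a polyadenylation factor, was higher in siZfp871 (66.9 and 76.7 CPM) than in siSrrm4 (51.9 and 49.3 CPM; adjusted p 0.0305, edgeR).

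The fourth list, of 23 other RNA-binding regulators of translation with 22 tested, held the largest log2 fold changes of the list genes called in the replicated experiment. Msi1, a neural RNA-binding protein, fell in siSrrm4 (60.8 and 50.4 CPM, against 107 and 95.4 CPM in siNT2; log2 fold change -0.87, adjusted p 0.0295, edgeR). Dazl, a germ-cell translation regulator at a very low level here, fell in siZfp871 (1.117 and 1.09 CPM, against 3.71 and 4.65 CPM in siNT2; log2 fold change -1.92, adjusted p 0.0232, edgeR). In siZfp871 against siSrrm4, Msi1, Lsm14a and G3bp1 were higher and Dazl and G3bp2 lower, so that the stress granule proteins G3bp1 and G3bp2 moved in opposite directions (log2 fold changes 0.48 and -0.56).

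In the experiment without replicates 1 of 103 list genes reached a log2 fold change of 1 in siMbnl (0.971%, against 1.02% of all genes) and 2 in siNacc1 (1.94%, against 3.44%). Dazl had 3.03 CPM (155 counts) in siMbnl, against 6.12 CPM (385 counts) in siNT1, a log2 fold change of -1.0043 that only just passed. In siNacc1, Btg2, which recruits the deadenylase, had 0.727 CPM (44 counts), against 3.54 CPM (223 counts) in siNT1. Its level also varied widely between the siNT2 control libraries of the other experiment, at 4.58 and 1.44 CPM. Eif2s2, the beta subunit of eIF2, had 132 CPM in siNacc1, against 428 CPM in siNT1.

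Cassette exons of the list genes were not called in the replicated experiment, 0 of 183 in each contrast, where 0.123%, 0.0% and 0.0% of all exons were called. With an unadjusted p under 0.05 there were 16, 7 and 14 (8.74%, 3.83% and 7.65%), against 5.71%, 4.67% and 5.33% of all exons. Without replicates 367 list exons were kept, and 1 was higher and 1 lower past the 20 points in each knockdown. That share was close to the one over all genes, 0.534% of 36175 exons in siMbnl and 0.498% in siNacc1. The list exons that passed were the same pair of Cyfip1 exons in both knockdowns, which share the siNT1 library. The 148-nt exon (chr7:63153195-63153342) had PSIs of 38.3 in siMbnl and 46.0 in siNacc1, against 13.6 in siNT1, and the neighbouring 154-nt exon (chr7:63153608-63153761) had 67.1 in siMbnl and 68.9 in siNacc1, against 94.3 in siNT1.

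**Figure D4:**
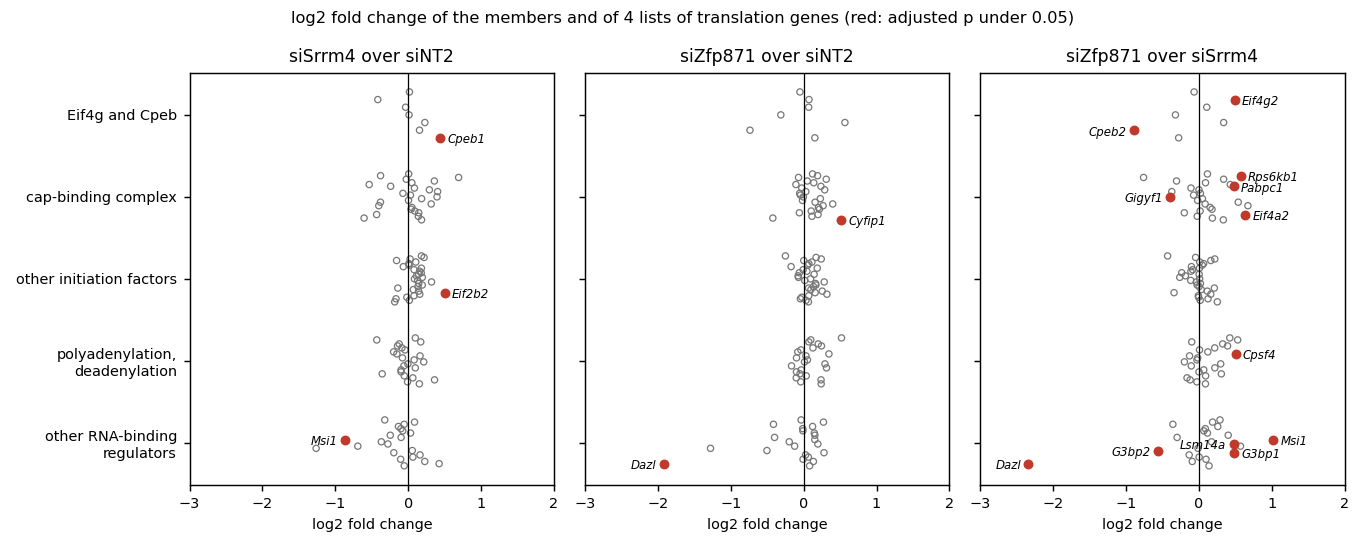
log2 fold change of the 7 members and of the tested genes of the 4 lists (rows) in siSrrm4 over siNT2, siZfp871 over siNT2 and siZfp871 over siSrrm4 (panels); red, named points have an adjusted p under 0.05 and open points do not. Called genes are few against siNT2 and reach -1.92 for Dazl in siZfp871.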

How the data were processed

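Per the labels' protocols, poly(A) RNA of N2A cells was taken 48 h after siRNA transfection and extracted with TriZol or a Qiagen kit, with no record here of which library had which. The submitters' processing notes name CASAVA 1.8, edgeR and the mm9 build, and the series' design text names vast-tools for splicing. The deposited tables hold raw read counts per gene, made by the authors, with cRPKM (the authors' RPKM over mappable positions), the authors' log2 fold changes with FDR p-values, PSI in percent per splicing event with the reads behind it, and the authors' marks of differential splicing (other). Deposited column letters a and b are not tied to the replicate numbers of the labels. They were mapped to groups only, and 1 measure per table was used in the replicated experiment (gene counts, and the inclusion and exclusion reads from which PSI was recomputed), cRPKM was used in the other experiment only, and 14 columns of single libraries were not used, a trimmed control among them. Pooled PSI columns are the authors' values.

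Gene counts were tested over 12378 genes with edgeR 4.0.16 (filterByExpr, TMM, quasi-likelihood F test, all 6 replicated libraries in 1 fit, Benjamini-Hochberg over all genes). Cassette exons (20266) were tested with edgeR's quasi-likelihood test on inclusion and exclusion reads, with library and inclusion terms; these are the deposited corrected reads of each event, rounded to whole numbers. Dispersions were estimated per exon without a trend, as planned. The quasi-likelihood prior was first also run without an abundance trend, which called 0 exons, and edgeR's default prior with the trend was taken as the reported fit after that result was seen. Other events were tested with limma 3.58.1 on logit PSI with an offset of 1 point. The experiment with 1 library per group was described by size (log2 fold change of at least 1 with a prior count of 2 and at least 50 counts; at least 20 PSI points, at least 20 reads and 95% intervals apart). The scripts were tested on simulated data. Alternatives were DESeq2 1.42.0, other scaling factors and filters, a likelihood ratio test, the 4 libraries compared alone, a block on the column letter, leaving out each library, and the quasi-likelihood prior without an abundance trend. Without molecular identifiers PCR copies cannot be removed, so intervals cover counting error only.

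The members and lists were chosen with earlier results of these data known. Named were all 7 members, their measured exons (the 18 longer ones by range and those at its ends), list genes and list exons past the thresholds, the 2 genes (by Pearson's r) and 3 exons (by root mean square PSI difference) closest to each member or microexon (1 of these exons is not reported here), and the siRNA targets. The Cpeb4, Cpeb2, Eif4g1, Eif4g2 and Eif4g3 exons over 27 nt were chosen for naming after their values were seen. Microexon sequences came from GENCODE vM21 transcripts; mm9 genome sequence was not used here.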

Additional observations from a re-analysis of the deposited data

How the results depend on the processing

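Depth limits the Cpeb genes most: the microexons of Cpeb2 and Cpeb3 had 5 to 148 reads per library. Member genes called in siSrrm4 against siNT2 numbered 1 in the reported fit, 2 by DESeq2's Wald test, 0 with only the 4 libraries compared and 0 to 0 with each library left out. In siZfp871 against siNT2 they numbered 0, and 1 by DESeq2. In siZfp871 against siSrrm4 they numbered 2, and 0 to 1 with each library left out. Member cassette exons called in siSrrm4 against siNT2 numbered 1, but 2 by the likelihood ratio test, 0 with only the 4 libraries compared, 0 without the abundance trend and 0 to 0 with each library left out. In siZfp871 against siNT2 they numbered 0, and 1 by the likelihood ratio test. Over all exons in siSrrm4 against siNT2, 25 were called in the reported fit, 282 by the likelihood ratio test, 1 with only the 4 libraries, 16 with at least 20 reads, 37 with the replicate block, 0 without the abundance trend and 0 with any 1 of the 4 libraries left out, microexons included. Over all genes, called genes in siSrrm4 against siNT2 numbered 582 in the reported fit, 1747 by DESeq2 and 0 with only the 4 libraries. In siZfp871 against siNT2 they numbered 358, 1351 by DESeq2 and 178 with only the 4 libraries, and in siZfp871 against siSrrm4 1374 and 2422 by DESeq2. With each library left out they ran from 0 to 180, 0 to 29 and 0 to 530 in these contrasts. In siMbnl against siNT1, 1 member exon passed when 10 points were asked. Columns with the same letter deviated together in log2 CPM (r 0.637 to 0.749) and hardly in logit PSI (r 0.0255 to 0.0418), over genes and exons, but the letters are not known to mark a shared culture or day. With a replicate block on the letter, 2 member genes were called in siSrrm4 against siNT2, 3 in siZfp871 against siNT2 and 4 in siZfp871 against siSrrm4, 1 member exon in siSrrm4 against siNT2, and over all genes 4565, 3854 and 5191. The member genes were Eif4g2 and Cpeb1 (edgeR adjusted p 2.60e-04 and 4.31e-04), then Cpeb2, Cpeb3 and Cpeb4 (2.94e-06, 4.73e-03 and 0.0151), then Eif4g2, Cpeb1, Cpeb2 and Cpeb4 (3.48e-05, 0.0102, 1.42e-07 and 8.67e-03). With each library left out, values near 0 changed sign. The log2 fold change in siSrrm4 against siNT2 ran from -0.19 to 0.10 for Eif4g1, -0.010 to 0.046 for Eif4g3, -0.055 to 0.40 for Cpeb2 and -0.10 to 0.11 for Cpeb4. That of Eif4g1 ran from -0.040 to 0.18 in siZfp871 against siNT2 and from -0.033 to 0.26 in siZfp871 against siSrrm4. PSI differences that changed sign ran, in siSrrm4 against siNT2, from -0.699 to 0.270 (Cpeb1 95-nt exon), -1.29 to 0.785 (Eif4g3 129-nt exon) and -3.40 to 1.60 (Eif4g3 33-nt exon). They ran from -1.95 to 2.23 (Cpeb4 51-nt exon, siZfp871 against siNT2), -15.01 to 0.0985 (Cpeb2 microexon, siZfp871 against siNT2), -3.01 to 0.600 (Eif4g2 114-nt exon, siZfp871 against siNT2), and, in siZfp871 against siSrrm4, -1.69 to 0.280 (Cpeb1 224-nt exon), -1.28 to 13.8 (Cpeb2 microexon), -0.740 to 0.660 (Eif4g3 96-nt exon) and -0.320 to 0.529 (Eif4g3 microexon). The cause of these changes was not tested. In the replicated experiment the other log2 fold changes of member genes, the other microexon differences and those of the Eif4g1 94-nt and Cpeb2 90-nt exons kept their direction under the alternatives run.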
